A study of Homo sapiens with 12 samples.

Results

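The genes described here are 53 listed genes of mitosis and of the G2 phase before it, grouped by role into cyclins and CDC25 phosphatases, mitotic kinases, spindle checkpoint, chromosomal passenger complex, kinetochore, kinesin motors, other spindle proteins, cytokinesis, the anaphase-promoting complex with chromatid separation, chromosome structure, and the transcription factor FOXM1. They are a fixed list of names, chosen with earlier results of these data known, and all 53 were measured among 19775 genes. RNA came from the human cell lines Mino, Rec-1 and SP-49, established from mantle cell lymphoma, which is a B-cell cancer driven by cyclin D1. For 24 h each line received either 0.1% DMSO (mock) or compound E at 1 µM (called the inhibitor), which blocks gamma-secretase and with it the cleavage of Notch, with 2 arrays per group and 12 Affymetrix arrays in all. Serum was 15% in the Mino medium and 10% in that of both other lines, so line and serum cannot be told apart wherever Mino is compared. Each line is a model of its own and no gene was altered by design. Values are log2 levels, so a difference of 1 is 2-fold. A gene passed the test when its limma p-value, adjusted by the Benjamini-Hochberg method over all 19775 genes, was under 0.05.

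A cell enters mitosis when CDK1, paired with cyclin B, is switched on by CDC25 phosphatases and PLK1. Kinetochores then tie chromosomes to the spindle, checkpoint kinases hold anaphase back until every kinetochore is attached, and CDC20 with the anaphase-promoting complex lets separase split the sister chromatids. Most of these genes are silent in G1 and rise together in G2, through the MuvB, MYBL2 and FOXM1 complexes that act at a promoter element called CHR, often near CCAAT boxes. Their mRNA levels are therefore widely read as a proliferation signature, and MKI67, which encodes the Ki-67 antigen, is a standard proliferation marker in mantle cell lymphoma. In bulk RNA, fewer cells in G2 and mitosis and less RNA per such cell cannot be told apart.

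The promoters of 5 members are printed as examples and do not stand for all members that differed. TOP2A, KIF23, PLK1 and CDC20 differed between the lines, and HMMR was the member that passed the test after the inhibitor. Each is the stretch of 250 bases before the start of the gene, 5′ to 3′ on the gene's strand, from RefSeq on build GRCh38.p14. Capitals mark CHR letters (TTTGAA or TTTAAA) and the CCAAT box (CCAAT) on either strand, so that TTCAAA and ATTGG are the same letters read on the opposite strand. TOP2A lies at chr17:40417897-40418146 on the minus strand. The others are on the plus strand, KIF23 at chr15:69414099-69414348, PLK1 at chr16:23678639-23678888, CDC20 at chr1:43358731-43358980 and HMMR at chr5:163460382-163460631.
TOP2A: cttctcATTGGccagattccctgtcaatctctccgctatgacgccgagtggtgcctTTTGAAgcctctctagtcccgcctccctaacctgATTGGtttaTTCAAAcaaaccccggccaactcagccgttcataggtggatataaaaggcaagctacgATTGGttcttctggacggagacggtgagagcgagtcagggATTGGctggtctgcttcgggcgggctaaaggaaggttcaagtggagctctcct
KIF23: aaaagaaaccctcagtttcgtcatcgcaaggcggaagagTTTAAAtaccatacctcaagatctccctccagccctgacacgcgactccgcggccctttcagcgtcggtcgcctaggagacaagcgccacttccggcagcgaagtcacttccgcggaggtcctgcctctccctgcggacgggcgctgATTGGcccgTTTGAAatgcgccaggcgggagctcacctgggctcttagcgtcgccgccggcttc
PLK1: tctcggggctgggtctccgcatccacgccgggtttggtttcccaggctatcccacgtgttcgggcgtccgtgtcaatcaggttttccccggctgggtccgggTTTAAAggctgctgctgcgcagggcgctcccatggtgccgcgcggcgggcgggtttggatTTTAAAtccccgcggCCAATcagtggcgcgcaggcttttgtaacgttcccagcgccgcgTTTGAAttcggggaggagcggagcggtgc
CDC20: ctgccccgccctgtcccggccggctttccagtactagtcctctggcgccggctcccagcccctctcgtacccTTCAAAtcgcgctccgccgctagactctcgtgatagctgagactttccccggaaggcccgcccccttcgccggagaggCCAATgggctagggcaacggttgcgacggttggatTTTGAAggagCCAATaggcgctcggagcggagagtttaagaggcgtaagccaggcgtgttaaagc
HMMR: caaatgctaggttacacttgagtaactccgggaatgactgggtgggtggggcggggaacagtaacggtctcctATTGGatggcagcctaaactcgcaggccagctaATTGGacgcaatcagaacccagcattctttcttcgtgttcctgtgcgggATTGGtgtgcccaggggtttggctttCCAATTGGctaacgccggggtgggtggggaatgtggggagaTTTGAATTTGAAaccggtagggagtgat
All 5 promoters held CHR letters and a CCAAT box. In PLK1 a TTTGAA began 29 bases before the gene's start with a CCAAT box 73 bases before it, and in KIF23 the nearest TTTGAA began 55 bases before the start. HMMR carried its pair of TTTGAA at 28 and 22 bases before the start.

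The RefSeq table had promoters of 46 of the 53 members, and the search covered 250 bases before to 50 after each start on both strands. CHR letters were in 38 of the 46 (82.6%), against 24.3% of all 27305 promoters of that length. A CCAAT box was in 34 (73.9%, against 35.7%), and 30 promoters (65.2%, against 9.49%) held both. CHR letters were absent from the promoters of CCNA2, CDC25B, CDC25C, NEK2, BUB1, AURKB, CENPI and CKAP2. All of these genes but CENPI passed the test in a pair of lines under mock, as described below. The E2F letters TTTGGCGC, TTTCGCGC or TTTCCCGC were in 4 promoters (8.7%, against 2.79%), those of CDK1, CENPA, KIF15 and NUSAP1. In 35 promoters of a list of G1/S and DNA replication genes the shares were 14.3% for CHR, 51.4% for CCAAT and 51.4% for E2F. The E-box CACGTG, which MYC can bind, was in 5 members' promoters (10.9%, against 7.43%), CCNB1, PLK1, CENPE, CENPF and ANLN. TTTAAA reads the same on both strands and was counted once per place. A match is a description of letters, not of a bound site.

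Across the series, values ran from 0.58 to 12.78 with a median probe set at 2.0, and each of the 53 members had a group mean above that median. HES1, a direct Notch target, showed that the inhibitor acted in Rec-1, with mock values of 5.86 and 5.67 and inhibitor values of 2.23 and 1.70. In SP-49 it went from 6.11 and 5.77 to 2.53 and 2.33, while in Mino all 4 arrays lay between 1.69 and 2.0. MYC fell by 1.53 in Rec-1 and by 1.55 in SP-49 (adjusted p = 0.000754 and 0.00565), and its difference in Mino was 0.13. The B-cell genes MS4A1, CD79A, CD79B and PAX5 and the cyclin D1 gene CCND1 had group means of at least 7.15 in every line. Other B-cell genes were lower, with group means between 3.92 and 5.58 for CD22 and between 6.09 and 7.13 for EBF1. SOX11, a marker of most mantle cell lymphoma, was at 4.90 in Rec-1 mock, against 7.42 in Mino and 8.56 in SP-49. Of the other cell types' markers, all 6 measured myeloid genes stayed at or under 2.19 on every array, and the T-cell gene CD3D had a mean of 4.80 in Rec-1 mock and the cytotoxic gene PRF1 one of 7.18 in Mino mock. Of the epithelial genes, EPCAM was at 4.05 in Mino mock and CDH1 at 3.56 in SP-49 mock. After the inhibitor CD3D fell by 0.63 in Rec-1 (adjusted p = 0.0253) and CDH1 by 1.73 in SP-49 (adjusted p = 0.0207), and the part of either in the results was not tested. CD5, which most mantle cell lymphoma carries, had group means between 2.40 and 4.37.

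**Figure D1:**
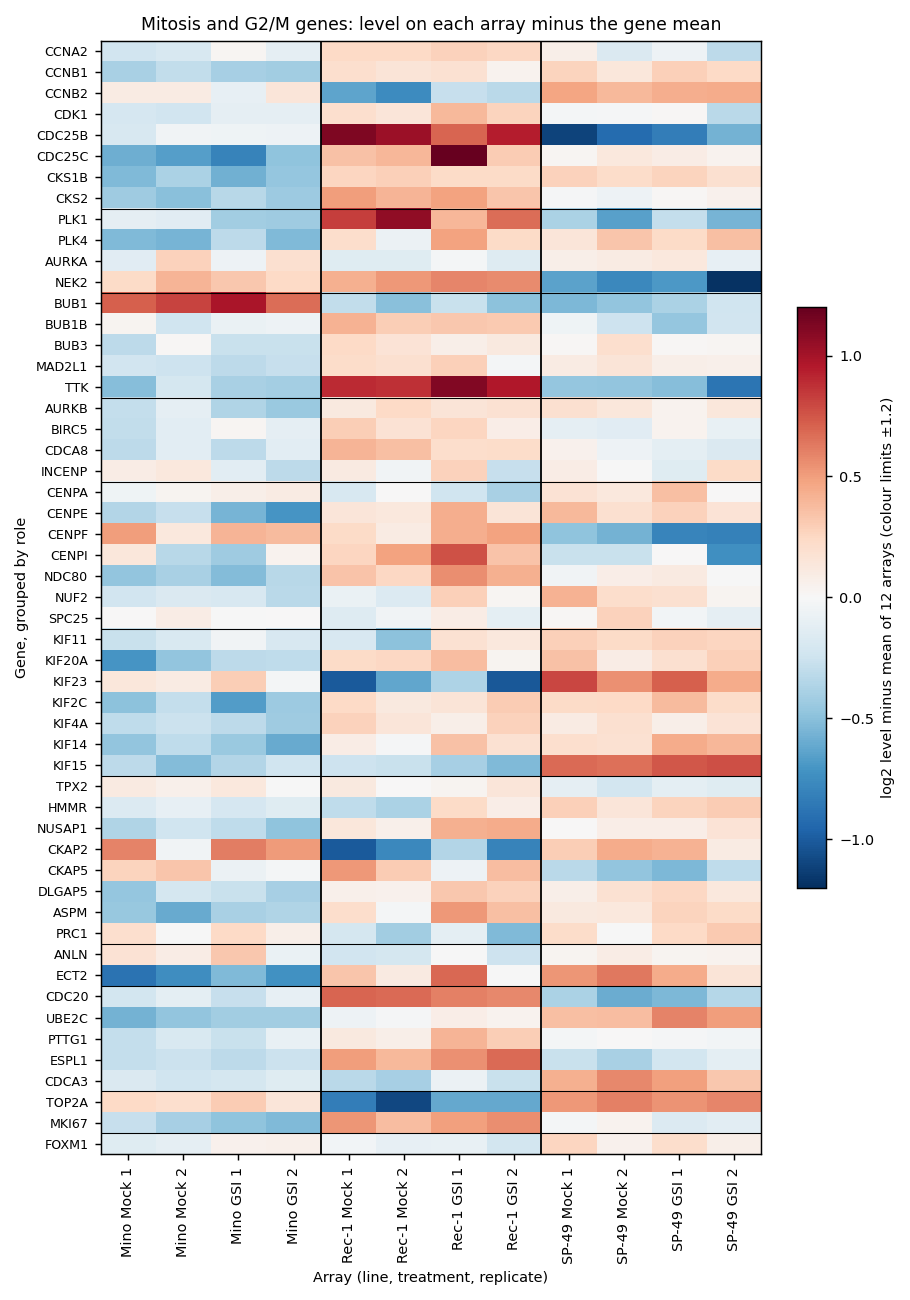
Colour shows the log2 level of each of the 53 genes (rows, grouped by role) on each of the 12 arrays (columns) minus that gene's mean over the arrays, with the scale limited at 1.2 either way. Columns of the same line look alike under mock and inhibitor, and the vertical lines between the cell lines are where most colours change.

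Most of the variation of these genes lay between the lines. In the median member, 86.4% of the sum of squares over the 12 arrays was between lines, 4.78% was between treatments within a line and 6.51% was between replicates, where the median of all genes had 46.3%, 14.9% and 27.4%. The plot of every array's deviation from the gene mean shows this as blocks of colour that follow the line and not the treatment. Replicates were close for these genes: the median SD of a pair of replicate arrays, over the 6 groups, was 0.079, against 0.110 over all genes. All genes include dim ones, so neither these figures nor the shares of all genes below are matched to the members for brightness. The part of brightness was not tested. Whether replicate arrays came from separate cultures is not given in the sources used here, so p-values measure the spread between these arrays, which may be technical.

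The first comparison asked what the inhibitor did to these genes within each line. In Mino and SP-49 none of the 53 passed the test on the probe set used for its gene, the brightest, and in Rec-1 HMMR was the only one. Of the members' further probe sets, 1 passed in a line, that of CDC25C in Rec-1. The background was 0 of all genes in Mino, 0.192% in SP-49 and 5.77% in Rec-1, where 2.15% were higher and 3.62% lower. At an unadjusted limma p under 0.05 there was 1 lower member in Mino, none in SP-49, and 6 higher and 1 lower in Rec-1. Here and below, counts at this unadjusted cut come without the share of all genes, so they do not set a list apart. The median change was -0.01 in Mino, 0.08 in Rec-1 and -0.0011 in SP-49, with members between -0.34 and 0.29, -0.40 and 0.50, and -0.28 and 0.32. For all 53 genes in all 3 lines the 95% interval of the change lay within 2-fold either way, as it did for 98.1% of all genes in Mino, 91.1% in Rec-1 and 96.0% in SP-49. The widest interval reached 1.70-fold in Mino, 1.86-fold in Rec-1 (CDC25C) and 1.66-fold in SP-49. Intervals within 1.5-fold were found for 45, 39 and 48 members, given without the share of all genes. These bounds are for the probe set used for each gene, and not for further ones such as that of CDC25C below. With fewer arrays they held for 50 to 53 members in Rec-1.

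**Figure D2:**
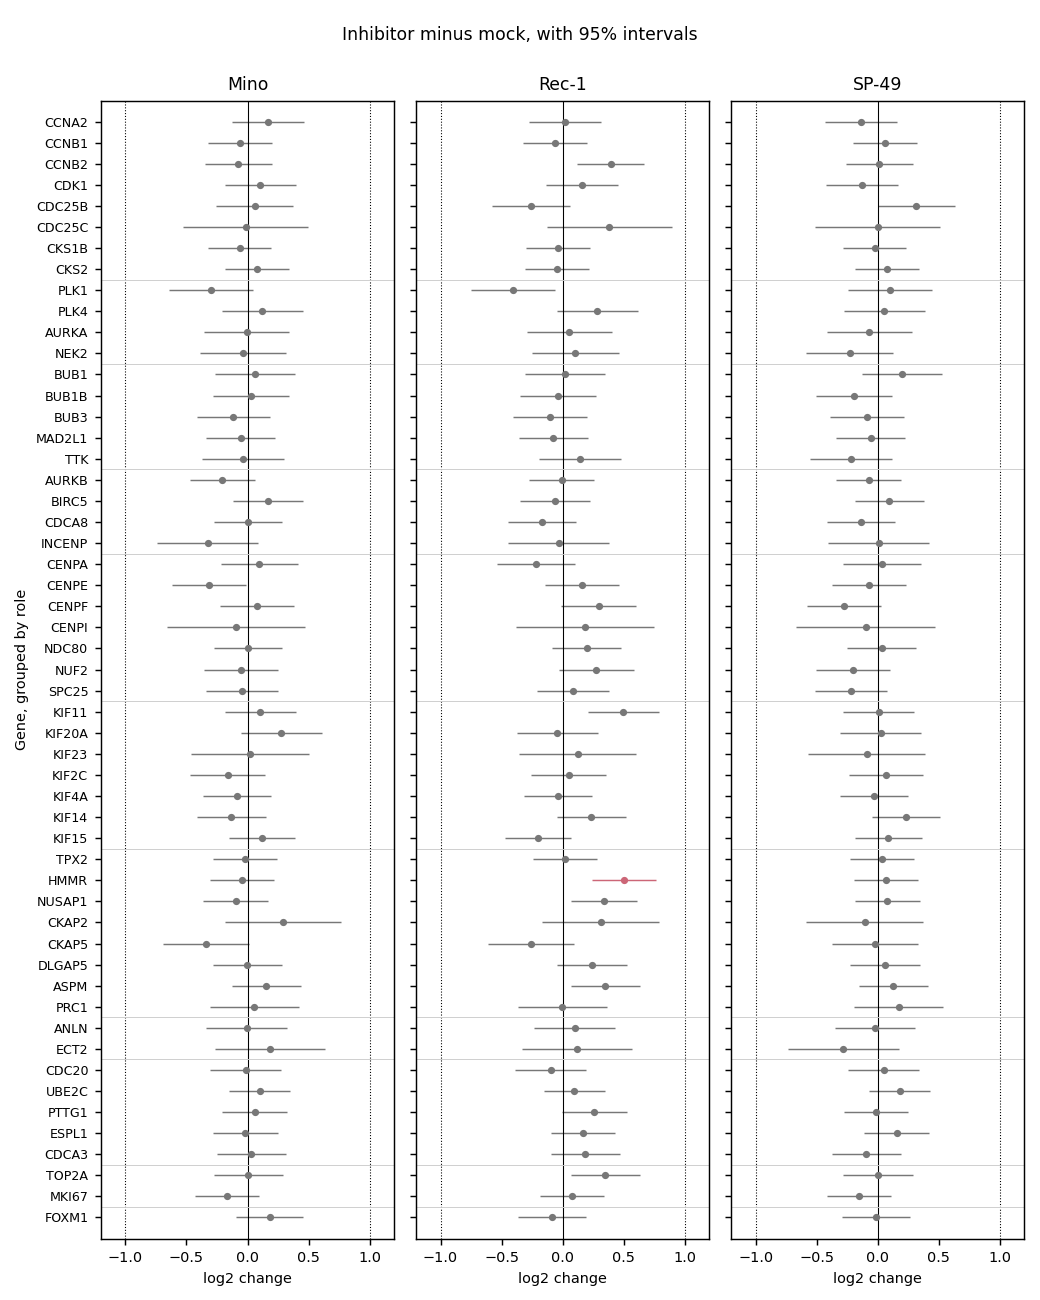
Points are inhibitor minus mock (log2) for each gene, with a panel per line, bars are 95% intervals from the limma fit, dotted lines mark 2-fold, and the coloured point passed the test at an adjusted p under 0.05. No interval crosses a dotted line, and HMMR in Rec-1, at 0.50, is the coloured point.

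HMMR encodes a spindle protein that binds microtubules and hyaluronan. In Rec-1 it was at 7.69 and 7.62 under mock and at 8.23 and 8.08 with the inhibitor. Both treated arrays lay above both mock arrays. HMMR rose by 0.50 (95% interval 0.24 to 0.76, adjusted p = 0.0340), a 1.41-fold change. The call was lost in 8 of 12 fits that left out an array, with an adjusted p up to 0.182 without Rec-1 mock replicate 2, and in 6 of 10 other settings. The second HMMR probe set gave 0.30 and did not pass, and with every probe set tested on its own HMMR had an adjusted p of 0.0501. In Mino HMMR was at 7.84 and 7.91 under mock and 7.80 and 7.86 with the inhibitor, and in SP-49 at 8.29 and 8.14 against 8.27 and 8.30, so that in both lines the arrays overlapped. The difference between the change in Rec-1 and that in Mino was 0.54 (adjusted p = 0.163), and between Rec-1 and SP-49 it was 0.43 (adjusted p = 0.374).

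CDC25C, which encodes a phosphatase that activates CDK1, gave different results by probe set. A dimmer probe set of CDC25C, at a mean level of 3.13, was at 3.23 and 3.11 on the Rec-1 mock arrays and 4.01 and 4.03 on the treated ones. Both treated arrays were higher, and this probe set rose by 0.84 in Rec-1 (adjusted p = 0.00704). The CDC25C probe set used here, at a mean level of 4.40, changed by 0.38 and did not pass, and the other one, at 1.54, gave -0.03.

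The other members with the smallest p-values in Rec-1 were KIF11 and CCNB2. KIF11, the kinesin that pushes spindle poles apart, was at 7.53 and 7.24 under mock and 7.91 and 7.85 with the inhibitor, a difference of 0.49 with an adjusted p of 0.0528. CCNB2, a B-type cyclin, was at 7.28 and 7.16 against 7.64 and 7.59, a difference of 0.39 (adjusted p = 0.102). In each gene the treated arrays were the higher pair. TOP2A, NUSAP1 and ASPM had differences of 0.35, 0.34 and 0.35 in the same direction with adjusted p-values of 0.160, 0.151 and 0.162, and none of these passed. With an intensity trend and a robust prior in limma, 7 members passed in Rec-1, all higher: HMMR, KIF11, CCNB2, NUSAP1, TOP2A, ASPM and the securin gene PTTG1.

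Arrays of Rec-1 differed in how far these genes moved. Treated and mock arrays did not overlap for 21 members that were higher and 8 that were lower, where 22.9% and 22.3% of all genes did so. Against the mean of the mock arrays, the median member was 0.13 higher on inhibitor array 1, with 38 of 53 above that mean, and 0.0022 higher on inhibitor array 2, with 27 of 53 above. The median of all genes was 0.0085 and 0.00041 higher on these arrays. The small upward shift of the members was thus on the first treated array and hardly on the second. Over all probe sets, the second treated array had the lowest SD of any array, 1.95, and the highest median, 2.06. On the first treated array these were 2.01 and 2.01. Their part in the shift was not tested. For GAPDH, the 3′ control probe set minus the 5′ one, which grows as RNA degrades, was 0.41 and 0.37 on the Rec-1 mock arrays and 0.59 and 0.49 on the treated ones. For ACTB it was 2.0 and 1.83 against 2.29 and 1.92, where mock and treated arrays overlapped. The part of either in the result was not tested. In Mino 9 members were higher and 9 lower without overlap (16.2% and 17.0% of all genes), and in SP-49 10 and 9 (18.1% and 24.4%).

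PLK1, the kinase that starts mitotic entry and drives spindle assembly, had the lowest change in Rec-1. It was at 6.05 and 6.28 under mock and at 5.63 and 5.90 with the inhibitor, so that the treated arrays were the lower pair, with a difference of -0.40 (95% interval -0.75 to -0.06, adjusted p = 0.178). In Mino it was at 5.12 and 5.09 against 4.80 and 4.80, again without overlap, a difference of -0.30 (adjusted p = 1.00). In SP-49 mock values of 4.84 and 4.57 overlapped treated values of 4.94 and 4.67. PLK1 did not pass in any line.

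The smallest p-values in Mino belonged to CENPE, a kinetochore motor, CKAP5, a microtubule polymerase, and PLK1. CENPE was at 6.05 and 6.13 under mock and at 5.85 and 5.70 with the inhibitor, a difference of -0.31 (adjusted p = 0.992). CKAP5 was at 7.13 and 7.20 against 6.80 and 6.85, a difference of -0.34 (adjusted p = 0.992). Neither pair of groups overlapped, and neither gene passed. In SP-49 the smallest belonged to CDC25B, a phosphatase that activates CDK1, CENPF, a large kinetochore protein, and KIF14, a motor of cytokinesis. CDC25B was at 6.17 and 6.37 against 6.45 and 6.72, a difference of 0.32 (adjusted p = 0.567). CENPF was at 6.58 and 6.50 against 6.27 and 6.25, and KIF14 at 7.45 and 7.44 against 7.70 and 7.65. Treated arrays were clear of mock arrays for these 3 genes, and the changes of -0.28 and 0.23 for CENPF and KIF14 did not pass.

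Averaged over the 3 lines, no member passed (background 1.90% of all genes), with 3 higher and 2 lower at an unadjusted limma p under 0.05, and every 95% interval lay within 1.36-fold. Intervals within 2-fold were found for 99.8% of all genes in that average. For the differences of the inhibitor's effect between lines, none of the 53 passed, where 1.43% of all genes did for Rec-1 against Mino, 0.0455% for SP-49 against Mino and 0.556% for Rec-1 against SP-49. The unadjusted counts were 4 higher and 0 lower, 0 and 0, and 4 higher and 2 lower. These differences share treated and mock arrays, and their intervals were wider: they lay within 2-fold for 51, 51 and 47 members, and for 76.6%, 82.6% and 79.3% of all genes.

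The second comparison was between the lines under mock, where the members differed more. The 3 pairs of lines share mock arrays, so their counts are not independent. Against Mino, 28 members were higher in Rec-1 and 5 lower, which is 62.3% of the 53, where 26.1% of all genes passed (12.8% higher and 13.3% lower). SP-49 had 19 higher than Mino and 5 lower, 45.3% of members, against a background of 25.6% (13.9% and 11.8%). Between Rec-1 and SP-49, 12 members were higher in Rec-1 and 10 lower, 41.5% of members, against 28.9% (13.1% and 15.8%). The median difference was 0.40 for Rec-1 minus Mino and 0.33 for SP-49 minus Mino, where the medians of all genes were 0.01 and -0.03, and 0.02 for Rec-1 minus SP-49, where it was 0.04. The 3′ minus 5′ difference of GAPDH was 0.26 and 0.25 on the Mino mock arrays, 0.41 and 0.37 in Rec-1 and 0.35 and 0.34 in SP-49. That of ACTB was 1.73 and 1.79 in Mino, 2.0 and 1.83 in Rec-1 and 2.29 and 2.36 in SP-49. Both were thus lowest in Mino, and their part in the differences between lines was not tested. Without Rec-1 mock replicate 1, 20 members passed between Rec-1 and Mino in place of 33, and without SP-49 mock replicate 1, 15 passed between SP-49 and Mino in place of 24.

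Mino had the lowest mock mean of the 3 lines for 28 of the 53 members and the highest for 5. Rec-1 was highest for 25 and lowest for 13, and SP-49 highest for 23 and lowest for 12. The order of the lines was not counted over all genes, so these counts do not set the members apart. The distance from the lowest to the highest line had a median of 0.63 over the members and 0.38 over all genes, and 12 members (22.6%) spanned more than 2-fold, against 21.3% of all genes. Spans over 2-fold were thus about as frequent as among all genes.

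**Figure D3:**
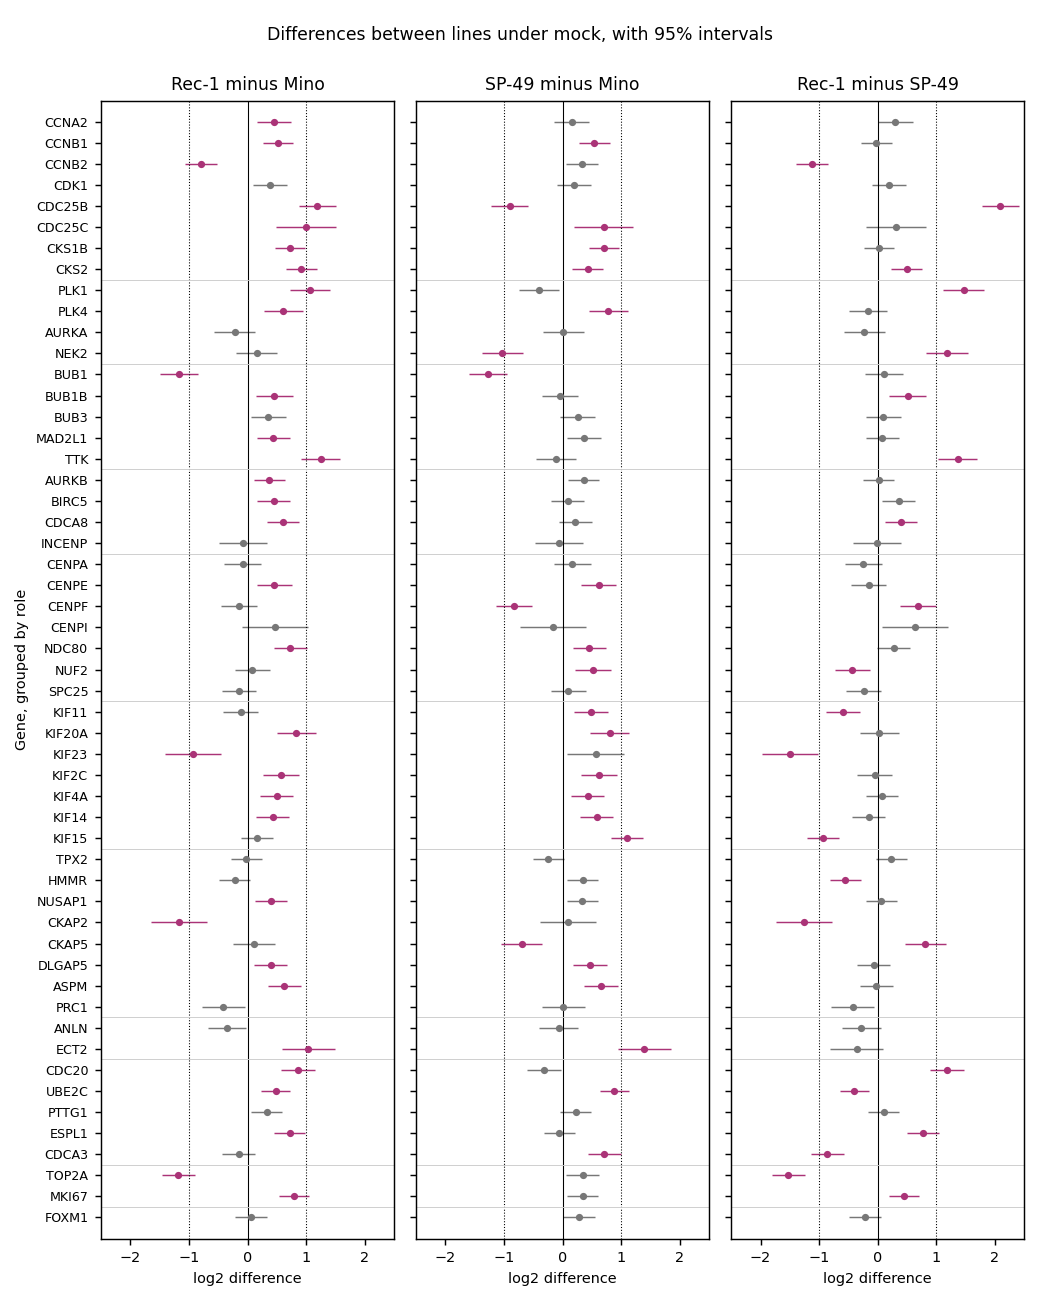
Points are differences between mock groups (log2) for each gene in the 3 pairs of lines, bars are 95% intervals from the limma fit, dotted lines mark 2-fold, and coloured points passed the test at an adjusted p under 0.05. Coloured points lie mostly right of 0 for Rec-1 minus Mino (28 of 33) and SP-49 minus Mino (19 of 24) and on both sides for Rec-1 minus SP-49 (12 right and 10 left).

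Of the 8 cyclins, CDK1, its CKS partners and the CDC25 phosphatases, 6 were higher in Rec-1 than in Mino and 1 lower, and 4 were higher and 1 lower in SP-49. CCNB1, the main mitotic cyclin, was at 7.91 and 8.01 in Mino mock, 8.50 and 8.45 in Rec-1 and 8.57 and 8.43 in SP-49. Mino was the low line, by 0.52 against Rec-1 (adjusted p = 0.00658) and 0.54 against SP-49 (adjusted p = 0.00497), and Rec-1 and SP-49 overlapped. With the inhibitor it was at 7.91 and 7.88, 8.48 and 8.35, and 8.58 and 8.54, close to the mock values in each line. A further CCNB1 probe set gave mock differences from Mino of 0.27 in Rec-1 and 0.42 in SP-49, which did not pass. CDK1, the mitotic kinase itself, was at 8.89 and 8.86 in Mino, 9.29 and 9.23 in Rec-1 and 9.07 and 9.07 in SP-49 under mock. The lines did not overlap, and the largest difference, 0.39 for Rec-1 minus Mino, missed the threshold (adjusted p = 0.0535). A second CDK1 probe set, at a mean level of 7.45, gave 0.62 and passed. With the inhibitor CDK1 was at 8.98 and 8.98 in Mino, 9.48 and 9.36 in Rec-1, and 9.10 and 8.77 in SP-49.

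CDC25B had the widest span of any member. It was at 7.09 and 7.25 in Mino mock, 8.41 and 8.31 in Rec-1 and 6.17 and 6.37 in SP-49. The 3 lines formed separate levels, with Rec-1 above SP-49 by 2.09 (95% interval 1.77 to 2.41, adjusted p = 7.06e-07), a 4.26-fold difference, and each neighbouring pair passed too, at 1.19 and -0.90 against Mino. CCNB2 ran the other way, at 8.01 and 8.01 in Mino, 7.28 and 7.16 in Rec-1 and 8.38 and 8.30 in SP-49. Rec-1 was the low line for it, at -0.79 against Mino and -1.12 against SP-49 (adjusted p = 0.000539 and 3.23e-05). The other 2 probe sets of CCNB2 are dim and did not pass, and the mean over its probe sets lost both calls. CCNA2, CDC25C, CKS1B and CKS2 were higher in Rec-1 than in Mino by 0.45 to 1.00, with further CDC25C probe sets at 0.33 and 0.17 that did not pass, while the 2 B-type cyclins thus differed from each other in direction.

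**Figure D4:**
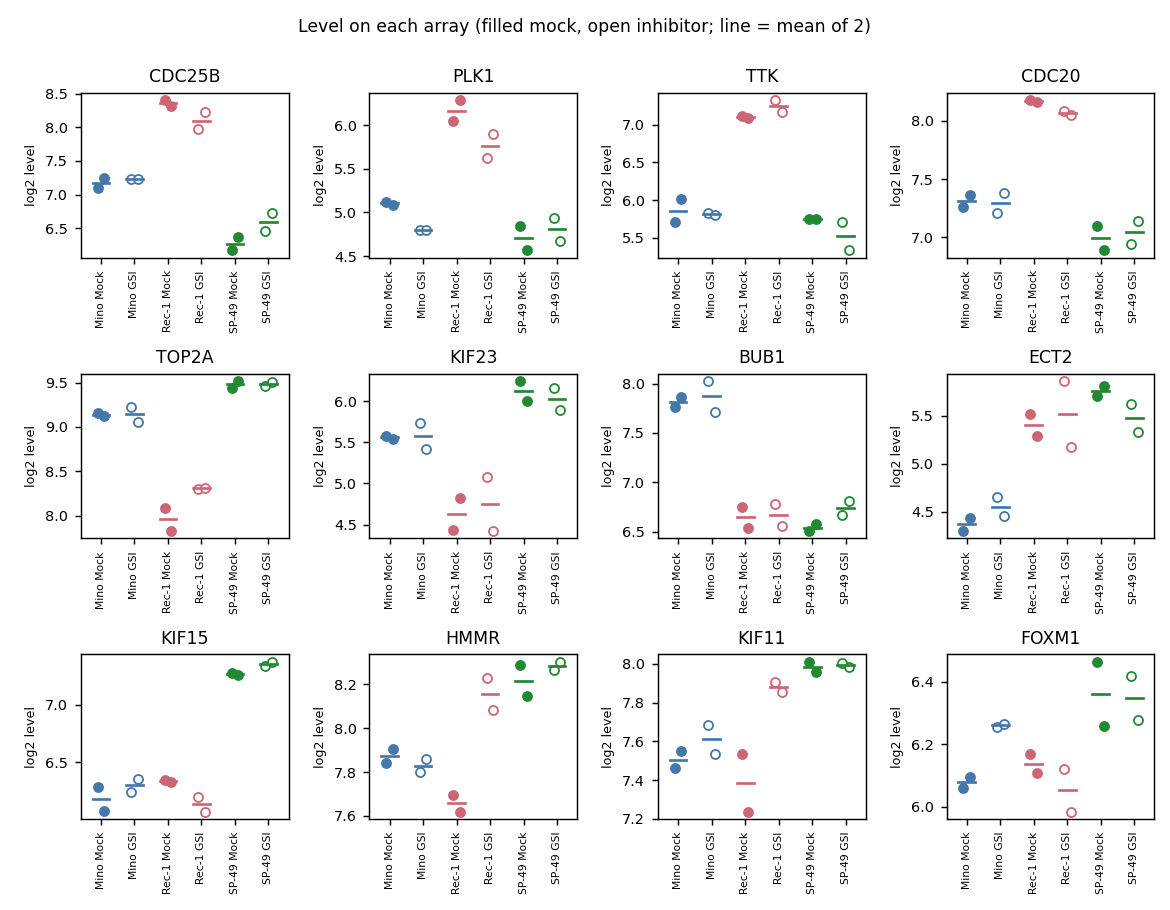
Log2 level of 12 members on each array, with filled points for mock, open points for inhibitor, a bar for the mean of the 2 arrays and a vertical scale of its own for each gene. CDC25B, PLK1, TTK and CDC20 are highest in Rec-1, TOP2A and KIF23 lowest there, BUB1 highest in Mino and KIF15 highest in SP-49, and HMMR and KIF11 have both open points above both filled ones in Rec-1.

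Among the 4 mitotic kinases, PLK1 and PLK4, the kinase of centriole duplication, were higher in Rec-1 than in Mino. PLK1's mock values, given above, put Rec-1 over Mino by 1.06 (adjusted p = 0.000311) and over SP-49 by 1.46 (adjusted p = 2.21e-05). Mino and SP-49 did not overlap, and their difference of -0.40 did not pass (adjusted p = 0.0900). NEK2, a centrosome kinase, was at 5.62 and 5.79 in Mino, 5.82 and 5.91 in Rec-1 and 4.75 and 4.62 in SP-49. SP-49 was low for NEK2, at -1.03 against Mino, and its second probe set gave -0.87 and passed. AURKA, the kinase of spindle poles, was at 7.86 and 8.27 in Mino, 7.85 and 7.85 in Rec-1 and 8.06 and 8.09 in SP-49 under mock, and at 7.94 and 8.19, 7.97 and 7.84, and 8.12 and 7.90 with the inhibitor. The replicates of Mino spanned nearly the whole range of the mock arrays, and no pair of lines passed.

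In the spindle checkpoint, BUB1 and TTK were high in different lines. BUB1, a checkpoint kinase at kinetochores, was at 7.76 and 7.86 in Mino mock, 6.75 and 6.54 in Rec-1 and 6.51 and 6.58 in SP-49. With the inhibitor it was at 8.03 and 7.71, 6.78 and 6.55, and 6.67 and 6.81. Mino was high under both treatments, and Rec-1 and SP-49 overlapped. Relative to Mino the mock differences were -1.17 and -1.27 (adjusted p = 0.000109 and 5.62e-05), and another BUB1 probe set gave -1.76 and -1.85. TTK, the kinase that starts checkpoint signalling, had its high line in Rec-1, at 7.12 and 7.09, against 5.71 and 6.01 in Mino and 5.75 and 5.74 in SP-49. The differences were 1.25 and 1.36 (adjusted p = 8.17e-05 and 3.29e-05), and Mino and SP-49 overlapped. BUB1B and MAD2L1, which form the checkpoint complex that restrains CDC20, were higher in Rec-1 than in Mino by 0.46 and 0.44, and BUB3, at 0.35, did not pass. Further probe sets of MAD2L1 gave 0.28 and -0.64 and did not pass.

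In the chromosomal passenger complex, which corrects faulty attachments, 3 of 4 members were higher in Rec-1 than in Mino and none passed between SP-49 and Mino, with 1 higher at an unadjusted limma p under 0.05. A further probe set of AURKB and one of BIRC5, by 1.16 and 0.97, did pass as higher in SP-49. AURKB, its kinase, was at 7.20 and 7.38 in Mino, 7.60 and 7.73 in Rec-1 and 7.68 and 7.62 in SP-49 under mock. The difference from Rec-1 passed narrowly at 0.37 (adjusted p = 0.0427, lost in 9 of 12 fits without an array) and that from SP-49, at 0.36, did not (adjusted p = 0.0506). With the inhibitor AURKB was at 7.13 and 7.04 in Mino, 7.64 and 7.67 in Rec-1 and 7.53 and 7.62 in SP-49, so that Mino stayed the low line. BIRC5, which encodes survivin, and CDCA8, which encodes borealin, were higher in Rec-1 by 0.44 and 0.61, and the other 3 probe sets of BIRC5 gave -0.23 to 0.61 and did not pass. INCENP, the scaffold, gave dim values between 2.40 and 2.98 and no pair of lines passed.

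Of 7 kinetochore members, 2 were higher in Rec-1 than in Mino, and 3 were higher and 1 lower in SP-49. NDC80, the microtubule-binding arm of the kinetochore, and CENPE were higher in both, by 0.73 and 0.45 for NDC80 and 0.46 and 0.61 for CENPE. NUF2, the partner of NDC80, was higher in SP-49 by 0.52 and differed from Mino by 0.08 in Rec-1. CENPF was at 7.56 and 7.19 in Mino mock, 7.29 and 7.16 in Rec-1 and 6.58 and 6.50 in SP-49. SP-49 was the low line, at -0.84 against Mino (adjusted p = 0.000770), while the 2 other probe sets of CENPF gave -0.05 and -0.03 and the mean over probe sets lost the call. CENPA, CENPI and SPC25 did not pass in any pair.

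Of the 7 kinesins, 6 were higher in SP-49 than in Mino, and KIF23, at 0.56, did not pass (adjusted p = 0.0894). In Rec-1, 4 were higher than in Mino and 1 was lower. KIF15, which backs up KIF11 in spindle assembly, was at 6.29 and 6.07 in Mino, 6.34 and 6.33 in Rec-1 and 7.28 and 7.26 in SP-49. SP-49 stood apart, by 1.09 over Mino, and Rec-1 minus SP-49 was -0.93 (adjusted p = 4.62e-05 and 0.000121). KIF20A, a motor of cytokinesis, was at 5.83 and 6.07 in Mino, 6.77 and 6.79 in Rec-1 and 6.89 and 6.63 in SP-49, so that Mino was low by 0.83 and 0.81 and the others overlapped. KIF23, which bundles microtubules at the midbody, was at 5.58 and 5.54 in Mino, 4.44 and 4.82 in Rec-1 and 6.24 and 6.0 in SP-49. Rec-1 was the low line for KIF23, at -0.93 against Mino (adjusted p = 0.00745) and -1.49 against SP-49 (adjusted p = 0.000256), and a second probe set gave -0.84 and -0.78. The call against Mino was lost without Rec-1 mock replicate 1 (adjusted p = 0.0775). KIF11 was lower in Rec-1 than in SP-49, at -0.60 under mock, and HMMR, a spindle protein, at -0.56.

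Among the 8 spindle microtubule proteins, 3 were higher in Rec-1 than in Mino and 1 lower, and 2 were higher and 1 lower in SP-49. ASPM, which focuses spindle poles, and DLGAP5, which stabilises kinetochore fibres, were higher in both lines, ASPM by 0.62 and 0.65 and DLGAP5 by 0.39 and 0.46. CKAP5 was lower in SP-49 than in Mino, at -0.70, and Rec-1 was higher than SP-49 by 0.81. A second CKAP5 probe set, nearly as bright, gave -0.11 and 0.25 and did not pass. CKAP2, which stabilises spindle microtubules, was at 6.98 and 6.34 in Mino, 5.39 and 5.62 in Rec-1 and 6.69 and 6.83 in SP-49 on its brightest probe set. By that probe set Rec-1 was low, at -1.16 and -1.26 (adjusted p = 0.00176 and 0.000847). Another CKAP2 probe set, whose mean level was 3.08, was higher in Rec-1 by 4.03 and 4.11, and the mean over probe sets gave 0.96 and 0.93, so the direction for CKAP2 depends on the probe set.

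ECT2, which starts the contractile ring of cytokinesis, had the largest difference of any member between SP-49 and Mino on the probe set used. It was at 4.30 and 4.44 in Mino mock, 5.51 and 5.29 in Rec-1 and 5.71 and 5.81 in SP-49. Mino was low by 1.03 against Rec-1 and 1.39 against SP-49 (adjusted p = 0.00263 and 0.000335), and the difference between the other lines did not pass. Its other 2 probe sets gave 0.16 and 0.57 for SP-49 minus Mino and did not pass. ANLN, a ring scaffold, did not pass in any pair.

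Of the 5 members tied to the anaphase-promoting complex and chromatid separation, 3 were higher in Rec-1 than in Mino and 2 were higher in SP-49. CDC20, which activates the complex, was at 7.26 and 7.37 in Mino mock, 8.18 and 8.16 in Rec-1 and 7.10 and 6.89 in SP-49. With the inhibitor it was at 7.21 and 7.38, 8.09 and 8.05, and 6.94 and 7.14. Rec-1 stood above both lines under both treatments, by 0.86 over Mino and 1.18 over SP-49 under mock (adjusted p = 0.000447 and 3.31e-05). Rec-1 was also the high line for ESPL1, the separase gene, over Mino by 0.72 and over SP-49 by 0.77. UBE2C, the ubiquitin-conjugating enzyme of the complex, was at 6.85 and 6.94 in Mino, 7.35 and 7.40 in Rec-1 and 7.77 and 7.78 in SP-49. UBE2C formed 3 steps, with 0.48 from Mino to Rec-1, 0.88 from Mino to SP-49 and all 3 pairs past the threshold. CDCA3 was higher in SP-49 than in Mino by 0.71, while its second probe set gave 0.23 and did not pass. PTTG1, which encodes securin, did not pass.

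TOP2A and MKI67, both used as proliferation markers, placed Rec-1 at opposite ends. TOP2A, the topoisomerase that untangles sister chromatids, was at 9.15 and 9.12 in Mino mock, 8.09 and 7.83 in Rec-1 and 9.44 and 9.52 in SP-49, and with the inhibitor at 9.22 and 9.06, 8.30 and 8.31, and 9.46 and 9.51. Rec-1 was low, at -1.18 against Mino and -1.52 against SP-49 (adjusted p = 3.41e-05 and 3.69e-06), a 2.87-fold gap in the second case, and another probe set gave -0.99 and -1.0. MKI67 was at 6.94 and 6.82 in Mino mock, 7.75 and 7.59 in Rec-1 and 7.19 and 7.26 in SP-49, and with the inhibitor at 6.74 and 6.69, 7.71 and 7.78, and 7.05 and 7.09. Here Rec-1 was the high line, by 0.79 over Mino (adjusted p = 0.000390) and 0.45 over SP-49 (adjusted p = 0.0140). The other 3 probe sets of MKI67 gave -0.02 to 0.37 for Rec-1 minus Mino and did not pass. The difference from SP-49 rests on the probe set: another probe set of MKI67, at a mean level of 4.44, gave -0.93 and passed, and the mean over probe sets gave -0.01. FOXM1, the transcription factor of the G2/M programme, was at 6.06 and 6.10 in Mino, 6.17 and 6.11 in Rec-1 and 6.46 and 6.26 in SP-49 under mock, and at 6.25 and 6.27, 6.12 and 5.98, and 6.42 and 6.28 with the inhibitor. FOXM1 did not pass in any pair of lines or under the inhibitor.

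Members of the list thus did not share an order of the lines. Under mock, CDK1, AURKA, BUB3, INCENP, CENPA, CENPI, SPC25, TPX2, PRC1, ANLN, PTTG1 and FOXM1 were the 12 members that passed in no pair on the probe set used, among them the spindle assembly factor TPX2 and PRC1, which bundles the central spindle. Every member that passed had arrays without overlap between the lines. Without overlap in either direction were 36 higher and 11 lower for Rec-1 against Mino (30.0% and 27.8% of all genes), 33 and 9 for SP-49 against Mino (28.7% and 32.4%), and 21 and 20 for Rec-1 against SP-49 (34.7% and 28.9%). Where called members had further probe sets, all of these had the same sign for 14 of 19 in Rec-1 minus Mino, 9 of 12 in SP-49 minus Mino and 7 of 11 in Rec-1 minus SP-49. A further probe set passed in the same direction for 10 of these 19, 5 of 12 and 5 of 11. Of members that did not pass, a further probe set passed for CDK1 in Rec-1 minus Mino, for CDK1, BUB3, AURKB, BIRC5, NUSAP1 and MKI67 in SP-49 minus Mino, and for CCNA2, PLK4, BIRC5 and KIF2C in Rec-1 minus SP-49. Among called members, a further probe set passed in the opposite direction for CKAP2 in both pairs with Rec-1 and for MKI67 in Rec-1 minus SP-49. Among members that did not pass, this held for CDK1 in SP-49 minus Mino and for BIRC5 and KIF2C in Rec-1 minus SP-49. For BIRC5 in that pair, another further probe set passed in the same direction as the probe set used.

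A second list held 117 other genes of the same processes, of which 113 were measured: condensin and cohesin, further subunits of the anaphase-promoting complex, kinetochore, spindle and cytokinesis genes, entry kinases and the DREAM and MuvB regulators. After the inhibitor none passed in Mino or SP-49, where an unadjusted limma p was under 0.05 for 2 higher and 1 lower and for 4 and 4. In Rec-1, 2 rose and 2 fell, shares no larger than the 2.15% higher and 3.62% lower of all genes. NEK7, a kinase of spindle assembly, rose by 0.69 (adjusted p = 0.0416) and RBL2, the pocket protein p130 of the repressive DREAM complex, rose by 0.59 (adjusted p = 0.0208). MYBL2, the activator that joins MuvB in S phase, fell by 0.58 (adjusted p = 0.0269), and CDC25A, a phosphatase that drives S phase and mitotic entry, fell by 0.56 (adjusted p = 0.0208). The calls of RBL2, MYBL2 and CDC25A were lost in 3 of 12 fits without an array and that of NEK7 in 9. Of 10 other settings, 2 lost the call of RBL2, 3 that of MYBL2, 4 that of CDC25A and 5 that of NEK7. The other regulators and the FOXM1 gene above did not pass in Rec-1.

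Under mock, 36 of these 113 genes were higher and 20 lower in Rec-1 than in Mino, 46 and 16 in SP-49 than in Mino, and 28 and 39 in Rec-1 than in SP-49. Of all genes 12.8% and 13.3%, 13.9% and 11.8%, and 13.1% and 15.8% were higher and lower in these comparisons. In each pair of lines the largest difference of this list, in either direction, exceeded that of the members. This did not hold for each direction taken alone. The members BUB1, at -1.27 for SP-49 minus Mino, and CDC25B, at 2.09 for Rec-1 minus SP-49, lay beyond this list's extremes on those sides. RBL2 was lower in Rec-1 than in Mino at -1.98 and than in SP-49 at -2.35, and E2F5, a repressive E2F, was higher in Rec-1 than in Mino by 1.90. PDS5B, a cohesin regulator, was at -1.98 and SHCBP1, a midbody protein, at -1.64 for Rec-1 minus Mino, with ARHGAP11A at 1.65 and CDC25A at 1.53. For SP-49 minus Mino the extremes were E2F4, the DREAM E2F, at -1.22, the condensin subunit NCAPH at -1.17 and UBE2S, an enzyme of the anaphase-promoting complex, at -0.89, against the kinetochore gene CENPO at 1.93, MELK at 1.29 and PLK3 at 1.29. For Rec-1 minus SP-49 they were SHCBP1 at -2.74, RBL2 at -2.35 and CENPO at -1.67, against NCAPG, a condensin subunit, at 1.69, ZW10, a checkpoint protein of kinetochores, at 1.68 and ARHGAP11A at 1.63.

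**Figure D5:**
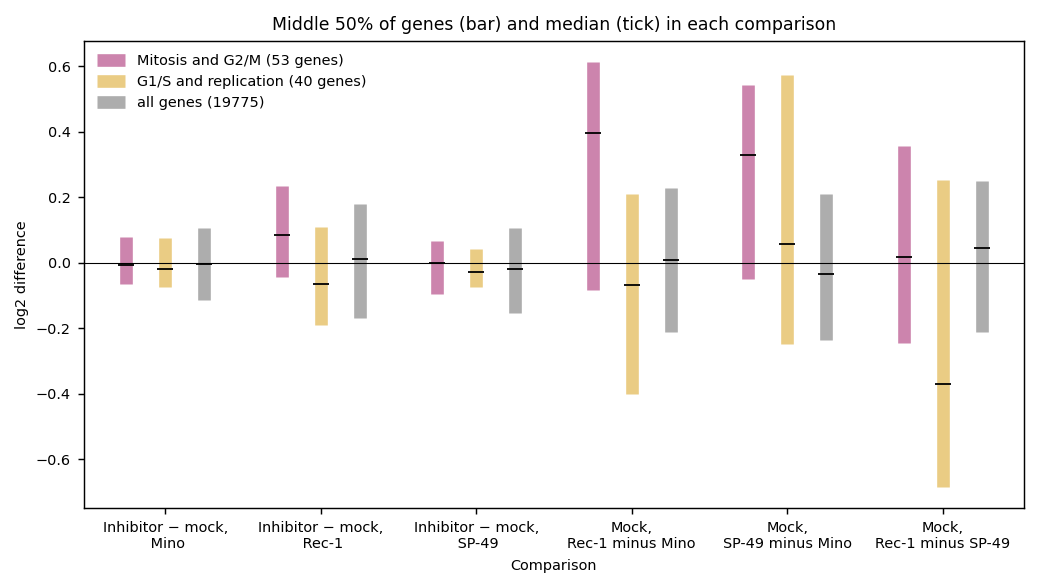
Bars span the middle 50% of genes and ticks mark the median log2 difference for the 53 members, the 40 G1/S and replication genes and all 19775 genes in 6 comparisons. The members' median is 0.40 and 0.33 in the comparisons of Rec-1 and SP-49 with Mino, near the other medians in the inhibitor comparisons, and 0.02 for Rec-1 minus SP-49, where the G1/S genes have -0.37.

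Genes of the preceding phases were counted in the same way, against the same shares of all genes. Of 40 measured G1/S and DNA replication genes, 6 were higher and 11 lower in Rec-1 than in Mino, 14 and 9 in SP-49 than in Mino, and 5 and 15 in Rec-1 than in SP-49, with medians of -0.07, 0.06 and -0.37. The members' medians in the same comparisons were 0.40, 0.33 and 0.02, and the difference between the lists was not tested. After the inhibitor none of the 40 passed in any line, with 0, 2 and 0 higher and 0, 3 and 1 lower at an unadjusted limma p under 0.05 in the order Mino, Rec-1, SP-49, and medians of -0.02, -0.07 and -0.03. The plot of the middle 50% of each list shows both lists close to 0 after the inhibitor and apart between the lines.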

How the data were processed

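Biotin-labelled RNA of 12 arrays (3 lines, 2 treatments, 2 arrays per group) was measured. The deposited values are on a log2 scale, with base 2 inferred from their range, and the submitters' processing notes name RMA and limma without versions. How each was used and when arrays were scanned is not given in the sources used here. The number of arrays limits the precision.

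Of 54675 probe sets, 41097 named 1 gene, 1801 several and 11777 none. For 41043 of the 41097 the gene's identifier was found in RefSeq, and the RefSeq symbol was used whether or not it differed. Each gene took its probe set with the highest mean, which gave 19775 genes with none filtered out. limma 3.58.1 in R 4.3.3 (lmFit, eBayes) fitted 6 group means, with 6 degrees of freedom from the residuals and 5.22 from the prior. All 10 contrasts were tested two-sided with Benjamini-Hochberg adjustment over all genes, after the code had been tested on simulated data. Motifs were searched with python 3.11.15.

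The members and lists were chosen with earlier results of these data known, so no list was tested as a set. Values per array are given for 10 core genes, the 3 smallest p-values per line after the inhibitor, any member passing there, and the 4 largest differences each way per pair of lines. Alternatives covered the probe set, filter, normalization, variance prior, array weights, arrays fitted, replicate block and each array left out. A further setting left out inhibitor array 2 of Rec-1 and inhibitor array 2 of SP-49 together.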

Additional observations from a re-analysis of the deposited data

How the results depend on the processing

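The count of members passing after the inhibitor in Rec-1, 1 as reported, was 2 when probe sets were averaged per gene, 2 with dim genes left out, 2 with quantile normalization applied again and 7 with an intensity trend and robust prior. It was 0 for the probe sets used when every probe set was tested on its own (a further one, of CDC25C, passed), with median centring, with array weights, with only the arrays compared and with the replicate block. Leaving out an array gave 0 to 1. With the trend and robust prior 1 member (ASPM) also passed in the average of the lines and 2 (HMMR and NUSAP1) in the Rec-1 minus Mino effect. Counts between lines under mock ran from 20 to 33 for Rec-1 and Mino, 15 to 26 for SP-49 and Mino and 16 to 23 for Rec-1 and SP-49 when an array was left out, and other settings stayed within 1.5 times the reported count. With the mean over probe sets, CKAP2 reversed to 0.96 (Rec-1 minus Mino) and 0.93 (Rec-1 minus SP-49) and MKI67 to -0.014 (Rec-1 minus SP-49), as their probe sets disagree. Other causes were not tested. Same-numbered arrays of a line did not deviate together (correlations 0.046, 0.094 and -0.011), so the replicate block only marks a number; it gave 33, 23 and 23 members for Rec-1 against Mino, SP-49 against Mino and Rec-1 against SP-49. No scaling moved the median of all genes by over 0.058. Dim probe sets, such as those of INCENP, are limited by signal over background.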

Other observations

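Of 13 measured genes of a list on cell-cycle arrest and p53-linked checkpoints, 3 rose in Rec-1 after the inhibitor, where 2.15% of all genes were higher, and none passed in Mino (0% of all genes) or SP-49 (0.192%), where 0 higher and 0 lower and 0 higher and 1 lower had an unadjusted limma p under 0.05. CCNG2, an unconventional cyclin linked to quiescence, rose by 1.08 (95% interval 0.80 to 1.37, adjusted p = 0.000903), and its call held in all 12 fits that left out an array and was lost with only the Rec-1 arrays in the fit (1 of 10 other settings). CDKN1B, the CDK inhibitor p27, rose by 0.50 (adjusted p = 0.0279), and CDKN1A, the CDK inhibitor p21, by 0.81 (adjusted p = 0.0378). The call of CDKN1B was lost in 6 of these 12 fits and in 4 of the 10 other settings, and that of CDKN1A in 11 and in 6. In the same arrays the change of each of the 53 mitosis and G2/M genes, on the probe set used, had a 95% interval within 2-fold.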
